A study of Drosophila melanogaster with 3 samples.

Results

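The genes described here are the regulators of the G1-S transition and the genes of DNA replication, from the cyclins and E2F factors that open S phase to the helicase, polymerases and nucleotide supply that carry it out. They were taken by symbol from a fixed list of 40 names, by a rule that uses no measured values. Earlier results of these data were known when the list was chosen. Of the 40 symbols, 39 were found among the 15603 genes of the deposited table. The symbol not found there was *RfC40*. RNA was measured in Drosophila eye-antennal discs (EAD) in 3 libraries, 1 per condition, so no difference has a replicate check and no p-value can be given. The first library holds GFP+ tumor cells, by genotype homozygous for a mutant allele of *scrib*, a cell polarity gene, and expressing oncogenic Ras. GFP- cells of discs of that genotype, the tumor microenvironment (TME), make up the second, and the third holds GFP+ cells of *GMR>GFP* control discs.

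The tumor and TME libraries carry the same alleles. These are *y,w,ey-flp/y,w* on the X chromosome, with *UAS-RasV12*, *Act>y+>Gal4* and *UAS-GFP* on the second, and *Frt82B scrib2* over *Frt82B, tubGal80* on the third. Flp recombinase is made under *ey* in the developing eye field, so that only cells that have lost *tubGal80* become *scrib* mutant, express RasV12 and glow. Unlabeled TME cells can be any other cell of the disc. The control has neither the Ras transgene nor the *scrib* allele, and *GMR* drives GFP behind the morphogenetic furrow, where most cells of the eye leave the cell cycle and differentiate. Genotype, position in the disc and stage of differentiation therefore cannot be told apart in comparisons with the control. Each library came from 50 discs of wandering larvae at Day 6, in batch 1 per the labels, with all 50 discs in 1 pool.

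Cyclin D with Cdk4 and Cyclin E with Cdk2 drive cells from G1 into S phase, in part by inactivating the Rb-family proteins that hold E2F transcription factors in check. E2F with its partner Dp activates genes for the replication machinery, many of which are transcribed mainly as cells enter S phase, so their RNA is often read as a mark of cycling tissue. Before replication, the origin recognition complex and Cdt1 load the MCM helicase on DNA, and during replication primase, the polymerases, the PCNA clamp and its loader copy the template from nucleotides that ribonucleotide reductase supplies.

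Levels are in FPKM, fragments scaled to transcript length and to the mapped fragments of the library, which allows levels of genes of different length to be set side by side. From the steps between low FPKM values, the depth was estimated as 1825537 fragments for tumor cells, 10955639 for TME cells and 1748655 for control cells. A 2000 nt transcript at 5 FPKM would thus have about 16.9, 103 and 16.4 fragments. Ratios are given with 95% counting intervals, which cover counting error only and not the spread between animals or preparations. A gene was counted as higher or lower when its FPKM was above 5 in the higher library and the ratio was at least 2.

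*Ras85D*, the gene of the expressed transgene, was at 327 FPKM in tumor cells, 118 in TME cells and 139 in control cells, and *scrib* was at 51.0, 44.6 and 36.2 FPKM. The *scrib* RNA was thus highest in the library labelled as mutant, and its level does not show the loss of the gene. The 8 eye disc identity markers were present in every library, at 11.6 FPKM or more. They summed to 458 FPKM in tumor cells, 475 in TME cells and 318 in control cells. All 8 were above the control in both tumor and TME cells. Of these, *gl* was at 16.1 FPKM in tumor cells, 29.6 in TME cells and 11.6 in control cells. Markers of other cell types also differed between libraries. The 12 neuron and photoreceptor markers summed to 33.2 FPKM in tumor cells, 42.3 in TME cells and 332 in control cells, and 7 of the 12 were lower in both tumor and TME than in control cells. Those 7 included *elav*, which marks neurons in general, and *pros*, at 57.3 and 81.7 FPKM in the control. By contrast, *chp*, *sens*, *ro*, *sev* and *boss* were at 3.88 FPKM or less in the control, with *boss* at 0 in the tumor. The neuron and photoreceptor markers were thus not all high in the control library. Whether that library holds only the cells its label names was not tested. Hemocyte markers, 6 measured, summed to 12.3 FPKM in tumor cells, 361 in TME cells and 339 in control cells. The 4 fat body markers summed to 0.253, 2.17 and 52.5 FPKM, with 3 at 0 in the tumor and 1 at 0 in the TME, and the 4 glia markers to 57.5, 65.6 and 95.3 FPKM. The glia markers did not move together. For 3 of them the tumor was below the control, such as *repo* at 3.06, 12.1 and 27.5 FPKM. The other, *moody*, was highest in the tumor, at 20.6, 9.69 and 9.89 FPKM. In bulk RNA, fewer cells of a type and less RNA per cell cannot be told apart, and the part of these cell types in the differences given here was not tested.

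Most replication genes had their highest level in the tumor and their lowest in the control. The tumor was above the control for 35 of the 39 genes, above the TME for 34, and the TME was above the control for 31. Among all 15603 genes, the tumor was above the control for 5002 and below it for 6503. It was above the TME for 6121 and below it for 5420, and the TME was above the control for 5014 and below it for 6832. With other scalings of the libraries, the tumor was above the TME for 24 to 28 of the 39 genes. By the rule, 10 of 39 genes were higher in tumor than control cells (25.6%, where 6.33% of all 15603 genes were), and 1 was lower (10.3% of all genes were). All 39 genes were above 5 FPKM in the tumor, so the 8129 genes above 5 FPKM in any library are a closer background, and among them 12.1% were higher and 19.9% lower. The 10 genes were *Mcm6* and *Mcm7* of the replicative helicase, *Psf2* of its activating complex, all 4 subunits of DNA polymerase alpha and primase, *mus209* (PCNA), *RfC38* of the clamp loader and *RnrL* of ribonucleotide reductase. The gene that was lower was *Orc6*. With each of 3 other scalings of the libraries *Mcm7* and *DNApol-alpha73* fell short of the rule, which left 8 genes, or 6 with the upper quartile, where *DNApol-alpha180* and *RfC38* did so too. The ratio of tumor to control ran from 0.404 to 3.98 with a median of 1.64, and 12 genes lay between 1.5 and 2.

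**Figure D1:**
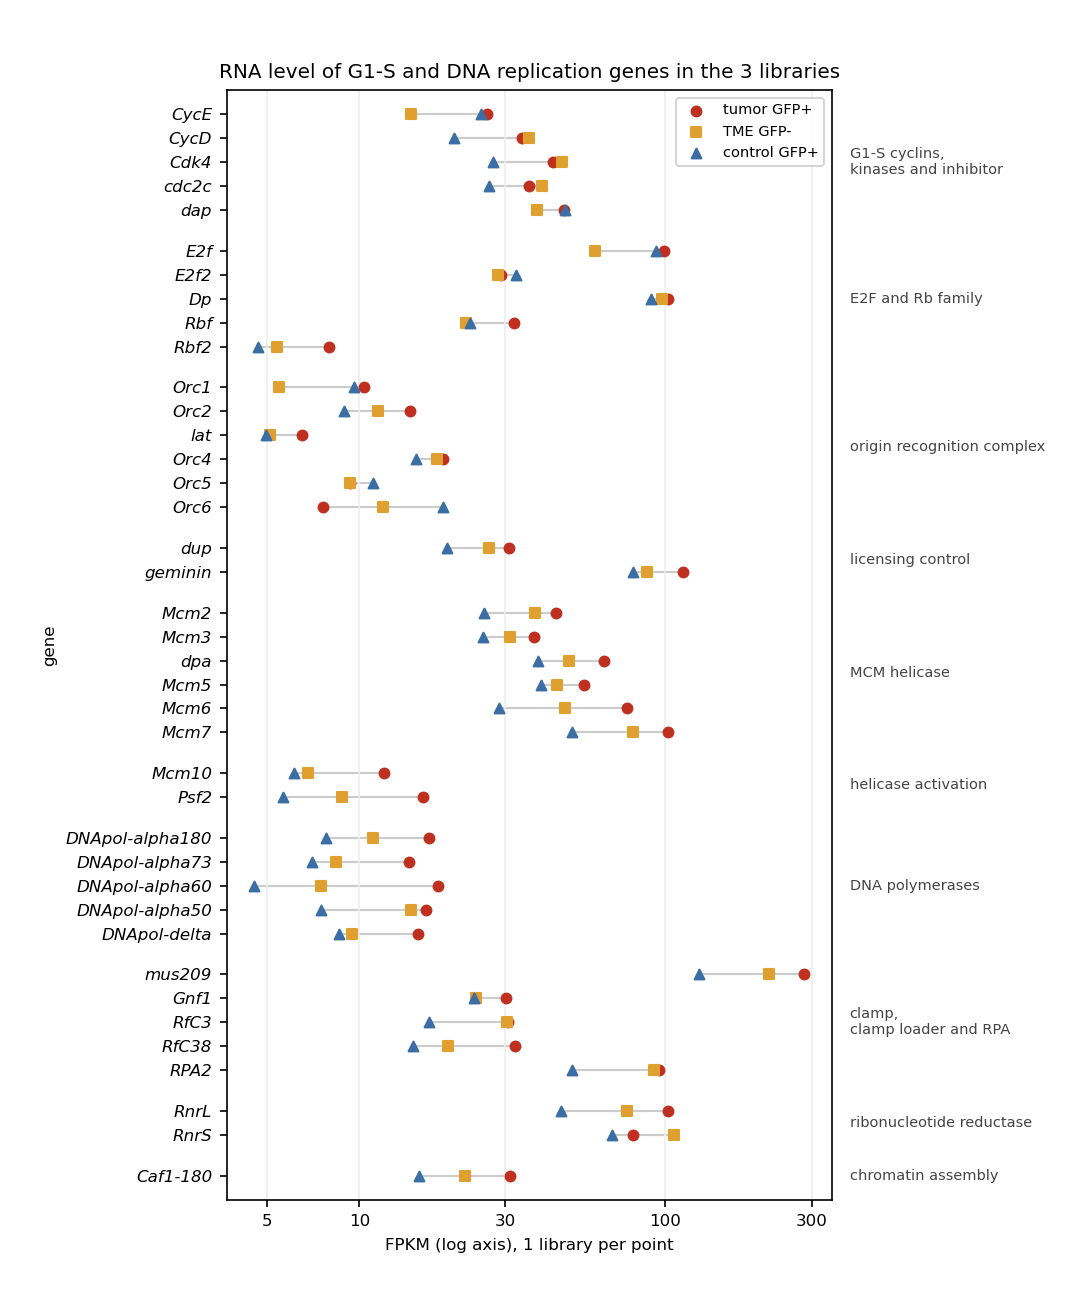
FPKM (log axis) of each of the 39 genes in the tumor GFP+ (circles), TME GFP- (squares) and control GFP+ (triangles) libraries, 1 library per point, grouped by role. From the MCM genes down, the circle lies to the right of the triangle for all 21 genes, and among the 18 genes above them for 14. This division was made after the values were seen.

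Among the G1-S cyclins and kinases, 2 patterns were seen. *CycE*, the cyclin that triggers S phase with Cdk2, was at 26.1 FPKM in tumor cells, 14.7 in TME cells and 24.9 in control cells. It was thus nearly level in tumor and control (ratio 1.05, interval 0.828 to 1.33, below 1 under each of the 3 other scalings tried) and lowest in the TME (tumor over TME 1.78, interval 1.48 to 2.13). *CycD*, which drives growth and G1 progression with Cdk4, was at 34.0 FPKM in tumor cells, 35.9 in TME cells and 20.4 in control cells. Its kinase partner *Cdk4* was at 42.8, 45.9 and 27.4 FPKM. For this pair the tumor and TME values lay together and both above the control, with tumor over control ratios of 1.66 (interval 1.23 to 2.26) and 1.56 (1.13 to 2.18). *cdc2c*, which encodes Cdk2, was at 35.9 FPKM in tumor cells, 39.5 in TME cells and 26.5 in control cells, and *dap*, an inhibitor of Cyclin E and Cdk2 of the p21/p27 family, was at 46.6, 38.0 and 47.0 FPKM. None of the 5 passed the rule in any comparison. Part of the *cdc2c* transcript, 1010 nt, overlaps exons of *CG17267*, at 8.73 FPKM in tumor cells and 9.42 in TME cells, and without strand information their reads cannot be told apart.

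The E2F and Rb-family genes had tumor over control ratios of 0.891 to 1.71, and none passed the rule. *E2f* (E2f1, the activator of S phase genes) was at 98.8 FPKM in tumor cells, 58.8 in TME cells and 92.9 in control cells, so that, as for *CycE*, the TME had the lowest value. Its tumor over TME ratio was 1.68 (interval 1.53 to 1.85) and its TME over control ratio 0.632 (interval 0.572 to 0.699), while tumor and control lay within counting error (1.06, interval 0.939 to 1.20). *E2f2*, which acts as a repressor, was at 29.0, 28.4 and 32.6 FPKM, and *Dp*, the shared E2F partner, at 102, 97.1 and 89.6 FPKM, each with intervals that span 1 in every comparison. *Rbf*, the main Rb homolog, was highest in the tumor, at 31.9 FPKM against 22.3 in the TME and 23.0 in the control (tumor over control 1.38, interval 1.11 to 1.73). The second Rb-family gene, *Rbf2*, was at 7.94, 5.39 and 4.65 FPKM.

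The 6 origin recognition complex genes were among the least abundant, at 6.47 to 18.8 FPKM in the tumor, 5.09 to 17.9 in the TME and 4.94 to 18.7 in the control. *Orc1* had the same order of libraries as *E2f* and *CycE*, with 10.4 FPKM in tumor cells, 5.47 in TME cells and 9.58 in control cells (tumor over TME 1.89, interval 1.38 to 2.56). *Orc6* ran the other way, at 7.58 FPKM in tumor cells, 12.0 in TME cells and 18.7 in control cells. Its control value was 2.47 times that of the tumor, but the counts behind it were about 11 and 28 fragments and the interval ran from 1.19 to 5.51. *Orc2* was at 14.7, 11.5 and 8.93 FPKM, with an interval of tumor over control from 1.02 to 2.70. *lat*, the Orc3 gene, was at 6.47, 5.09 and 4.94 FPKM, *Orc4* at 18.8, 17.9 and 15.4 FPKM, and *Orc5* at 9.35, 9.32 and 11.1 FPKM, with no ratio outside counting error for these 3 genes. Exons of *lat* share 3315 nt with *CG34315*.

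Licensing is the loading of the helicase at origins, which *dup* (Cdt1) carries out and *geminin* blocks by binding it. Both genes were highest in the tumor. *dup* was at 30.9 FPKM in tumor cells, 26.5 in TME cells and 19.4 in control cells (tumor over control 1.59, interval 1.22 to 2.10). *geminin* was at 114, 87.2 and 78.5 FPKM (1.45, interval 1.13 to 1.86).

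All 6 subunits of the MCM2-7 helicase followed the order tumor, TME, control. The subunits lay at 37.2 to 102 FPKM in the tumor, 31.1 to 78.2 in the TME and 25.3 to 49.5 in the control, and their summed FPKM was 375, 286 and 206. *Mcm6* differed the most, at 74.9 FPKM in tumor cells, 47.1 in TME cells and 28.6 in control cells, a tumor over control ratio of 2.62 (interval 2.14 to 3.22). *Mcm7*, at 102, 78.2 and 49.5 FPKM, lay just past the rule with a ratio of 2.05 (interval 1.73 to 2.44), and 2003 nt of its exons overlap an annotated antisense RNA gene, whose reads cannot be told apart without strand. The other subunits were under it. *Mcm2* was at 44.0, 37.5 and 25.6 FPKM (ratio 1.72), *Mcm3* at 37.2, 31.1 and 25.3 FPKM (1.47), *dpa*, the Mcm4 gene, at 62.9, 48.4 and 38.4 FPKM (1.64), and *Mcm5* at 54.3, 44.2 and 39.1 FPKM (1.39). Each of these intervals lay above 1. Although the 6 proteins form a ring with 1 copy of each, their RNA levels were not equal, and the highest was 2.73 times the lowest in the tumor and 1.96 times in the control.

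The helicase is switched on by Mcm10 and by the GINS complex, of which *Psf2* encodes a subunit. *Psf2* was at 16.1 FPKM in tumor cells, 8.77 in TME cells and 5.65 in control cells. Its ratio of tumor to control was 2.85, but with about 19 and 7 fragments the interval was wide, from 1.15 to 8.03. *Mcm10*, at 12.1, 6.80 and 6.13 FPKM, lay just under the rule with 1.97 (interval 1.24 to 3.19).

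The DNA polymerase genes included the largest ratio of the list. In the tumor the 5 genes lay close together, from 14.5 to 18.0 FPKM, against 7.48 to 14.8 FPKM in the TME and 4.54 to 8.56 in the control. DNA polymerase alpha starts each strand with primase, and all 4 of its subunits passed the rule against the control with FPKM as deposited, although *DNApol-alpha73* did so with none of the other scalings (1.88 to 1.95) nor with a pseudocount of 1 (1.93), and *DNApol-alpha180* not with the upper quartile (1.97). *DNApol-alpha60*, the large primase subunit, was at 18.0 FPKM in tumor cells, 7.48 in TME cells and 4.54 in control cells. Its tumor over control ratio of 3.98 (interval 2.14 to 7.95, from about 53 and 13 fragments) was the highest of the 39 genes. The small primase subunit *DNApol-alpha50* was at 16.5, 14.8 and 7.48 FPKM, so that, unlike the large subunit, it was close to the tumor level in the TME. *DNApol-alpha180*, the catalytic subunit, was at 16.9, 11.1 and 7.80 FPKM (ratio 2.16, interval 1.59 to 2.97). *DNApol-alpha73*, the accessory subunit, was at 14.5, 8.38 and 7.02 FPKM (2.07, interval 1.25 to 3.51). *DNApol-delta*, the catalytic subunit of an elongating polymerase, did not pass, at 15.6, 9.48 and 8.56 FPKM (1.82, interval 1.28 to 2.62).

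*mus209* encodes PCNA, the sliding clamp that holds polymerases on DNA, and was the most abundant of the 39 genes in each library. It was at 284 FPKM in tumor cells, 218 in TME cells and 129 in control cells. The tumor value was 2.21 times the control (interval 1.86 to 2.62) and the TME value 1.69 times (interval 1.46 to 1.97). Clamp loader genes were less even. *RfC38* was at 32.2, 19.5 and 15.0 FPKM (tumor over control 2.15, interval 1.38 to 3.44), *RfC3* at 30.6, 30.3 and 16.9 FPKM (1.81, interval 1.14 to 2.92), and *Gnf1*, the large subunit, at 30.1, 24.0 and 23.6 FPKM (1.27, interval 1.01 to 1.62). *RfC38* shares 404 nt of exon with *Nup160*, at 31.6 FPKM in tumor cells and 24.1 in TME cells, so part of its reads may belong to that gene. *RPA2*, a subunit of the protein that coats single-stranded DNA, was at 95.1, 91.5 and 49.6 FPKM, level between tumor and TME and 1.92 times the control in the tumor (interval 1.42 to 2.61). The RefSeq gene table gives *RfC40* as an older symbol of *RfC4*, which was looked up after the other values had been seen, lies outside the 39 genes and was at 104, 84.1 and 57.9 FPKM.

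The 2 subunits of ribonucleotide reductase, the enzyme that makes deoxyribonucleotides, had different patterns. *RnrL*, the large subunit, was at 102 FPKM in tumor cells, 74.9 in TME cells and 45.6 in control cells (tumor over control 2.23, interval 1.88 to 2.65). *RnrS*, the small subunit, was at 78.2, 107 and 66.6 FPKM. The TME therefore had the highest *RnrS* level, and the tumor over TME ratio of 0.734 (interval 0.632 to 0.849) was the only one of the 39 with an interval below 1. Between tumor and control *RnrS* differed by less than counting error (1.17, interval 0.954 to 1.45). *Caf1-180*, a subunit of the complex that places histones on new DNA, was at 31.0, 22.1 and 15.7 FPKM, with a tumor over control ratio of 1.98 (interval 1.56 to 2.52) that lay just under the rule.

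**Figure D2:**
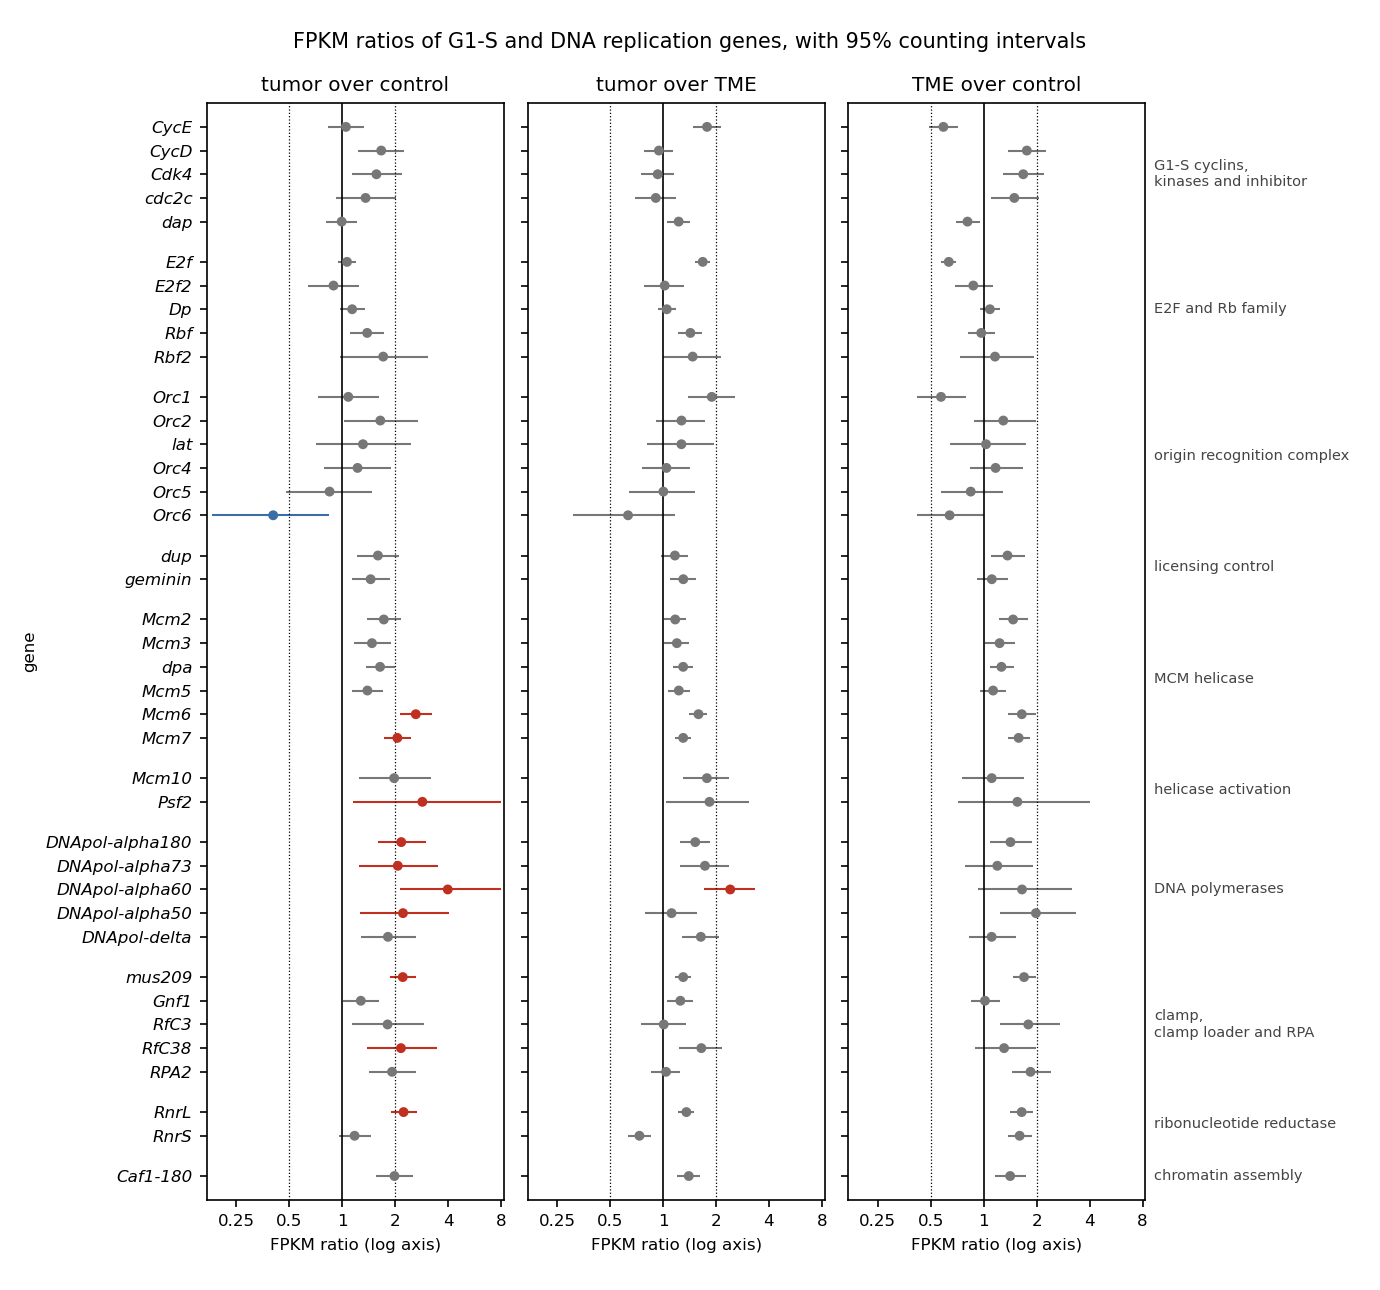
Ratios of FPKM (log axis) in the 3 comparisons (tumor or TME with control, tumor with TME), with 95% counting intervals as bars, a solid line at 1 and dotted lines at 0.5 and 2. Red points are higher and the blue point lower by the rule, and in the first panel all 4 polymerase alpha genes lie to the right of 2, with *DNApol-alpha60* furthest, at 3.98.

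Counting error alone separated more genes than the rule did. For tumor over control, the interval lay above 1 for 26 of 39 genes and below 1 for *Orc6* alone, where 24% of 8551 genes with a mean FPKM of at least 1 had an interval above 1 and 25% below. All 39 genes were above 5 FPKM in the tumor, and intervals are wider for genes with few fragments. The shares of genes by interval, here and in the other comparisons, are thus not matched for abundance. Of the 10 genes that passed the rule, 8 had intervals that reach below 2, and only those of *Mcm6* and *DNApol-alpha60* lay above it. The lower end of both was 2.14 with FPKM as deposited. Scaling by the upper quartile, which divides the ratios by 1.10, takes both below 2. After the values were seen, the list was divided into 18 regulators and origin factors (cyclins, kinases, E2F, Rb, origin recognition and licensing) and 21 genes of the helicase, polymerases, clamp, nucleotide supply and chromatin assembly. Of the former, 0 were higher in tumor than control cells by the rule and the median ratio was 1.27 (range 0.404 to 1.71). Still, 14 of the 18 lay above the control, 6 of them with an interval above 1. Of the latter, 10 were higher, all 21 lay above the control, 20 with an interval above 1, and the median ratio was 1.98 (range 1.17 to 3.98). Because the division followed the values, it was not tested.

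Tumor and TME differed less. Ratios ran from 0.632 to 2.41 with a median of 1.27. *DNApol-alpha60* was the only gene of the 39 to be higher in tumor than TME cells by the rule (2.41, interval 1.72 to 3.34, where 3.05% of all genes were higher), and 0 were lower (4.08% of all genes were). Among the 8129 genes above 5 FPKM in any library, 5.86% were higher and 7.82% lower. By counting error, 23 of 39 genes had an interval above 1, beside 29.9% of genes, and *RnrS* was the 1 gene below 1, beside 13.8%. That count depends on scaling, with 16 genes above 1 by the median ratio, 17 by the total after leaving out the 100 most abundant genes, and 12 above and 6 below by the upper quartile. Among the genes with the largest ratios after *DNApol-alpha60* were *Orc1* at 1.89, *Psf2* at 1.84, *CycE* and *Mcm10* at 1.78 and *DNApol-alpha73* at 1.73. Under scaling by the upper quartile of each library *DNApol-alpha60* no longer passed, and the number of genes above the TME went from 34 to 24, with *Dp*, *E2f2*, *Orc4*, *Orc5*, *RPA2*, *RfC3*, *Mcm2*, *Mcm3*, *dup* and *DNApol-alpha50* turned in direction. The median ratio and the total without the 100 most abundant genes each left 28 genes above the TME. With both, *Dp*, *E2f2*, *Orc4*, *Orc5*, *RPA2* and *RfC3* turned. The hemocyte markers given above, at 12.3 FPKM in sum in the tumor and 361 in the TME, differed in the same comparison, and their part in it was not tested.

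Between TME and control, 0 of 39 genes were higher and 0 lower by the rule, where 3.25% of all genes were higher and 7.77% lower. Of the 8129 genes above 5 FPKM in any library, 6.24% were higher and 14.9% lower. Smaller differences were seen in both directions. The interval lay above 1 for 17 genes (18.1% of genes) and below 1 for 4 (32.1% of genes), and those 4 were *CycE*, *dap*, *E2f* and *Orc1*. The highest ratios were those of *DNApol-alpha50* at 1.98 (interval 1.24 to 3.35), *RPA2* at 1.84 (1.44 to 2.40) and *RfC3* at 1.79 (1.23 to 2.70). The lowest were *Orc1* at 0.571 (0.417 to 0.796), *CycE* at 0.589 (0.488 to 0.715) and *E2f* at 0.632. By the division made after the values were seen, all 21 machinery genes lay above the control in the TME. Of these, 13 had an interval above 1, and the median ratio was 1.47. Of the 18 regulators and origin factors 10 lay above the control, 4 with an interval above 1 (*CycD*, *Cdk4*, *cdc2c* and *dup*). The neuron and photoreceptor markers, at 42.3 FPKM in sum in the TME and 332 in the control, and the fat body markers, at 2.17 and 52.5, differed between the same libraries, as they did between tumor and control, and their part in the differences was not tested.

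The libraries shared 1 order for most of the list. The tumor was highest and the control lowest, with the TME between, for 27 of the 39 genes (69.2%), beside 23.2% of the 9523 genes with a mean FPKM of at least 1. By the division that followed the values, the order held for 20 of the 21 machinery genes, *RnrS* being the exception. It also held for 7 of the 18 regulators and origin factors. Of the rest, *CycD*, *Cdk4*, *cdc2c* and *RnrS* were highest in the TME and lowest in the control. *CycE*, *E2f*, *Rbf* and *Orc1* were highest in the tumor and lowest in the TME, *dap*, *E2f2* and *Orc5* were highest in the control and lowest in the TME, and *Orc6* was highest in the control and lowest in the tumor. Many of these steps are within counting error, and the 3 comparisons share libraries, so they are not independent of each other. With the other scalings 20 to 23 genes had the order.

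Related genes outside the list were then examined, from lists of replication, G1-S, mitosis and repair genes. These lists too were chosen with earlier results of these data known. The 32 other replication genes had a median log2 difference of FPKM + 1 of 0.70 between tumor and control, next to 0.66 for the 39 genes and -0.07 for all genes. Of the 32, 6 were higher and 0 lower in the tumor. *Cdc6*, which loads MCM with Cdt1, was at 10.5 FPKM in tumor cells, 6.82 in TME cells and 2.65 in control cells (ratio 3.97, interval 2.02 to 8.51). *Ctf4*, which links helicase and polymerase alpha, was at 16.0, 11.3 and 5.51 FPKM (2.90). *Fen1*, the flap nuclease of lagging strand maturation, was at 27.1, 21.7 and 10.2 FPKM (2.67). The other 3 were *CG12018*, *Sld5* of GINS and *CG8142*, with ratios of 2.37, 2.28 and 2.14. Between TME and control 5 of the 32 were higher, namely *Cdc6*, *Fen1*, *Ctf4* and, named after their values were seen, *timeout* and *Slbp*, and 0 were lower. Between tumor and TME 0 of the 32 passed in either direction.

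The 15 other G1-S control genes stood nearer to all genes, with a median of 0.10 between tumor and control and 0.00 between TME and control. Of the 15, 0 were higher and 1 lower in tumor than control cells. That gene was *rux*, a G1 inhibitor of Cyclin A kinase activity, at 6.56 FPKM in tumor cells, 8.07 in TME cells and 20.0 in control cells. It was also lower in the TME than in the control, while *Cks85A*, at 16.8, 23.7 and 11.8 FPKM, was higher there. None of the 15 passed between tumor and TME. The 35 mitosis genes had a median of 0.65 between tumor and control, with 13 higher and 0 lower. *Klp61F*, a spindle kinesin, was at 89.6, 46.1 and 24.5 FPKM (ratio 3.65, interval 3.06 to 4.37), and *polo*, a mitotic kinase, at 230, 142 and 83.4 FPKM (2.75, interval 2.42 to 3.14). The 25 repair and checkpoint genes had a median of 0.46, with 5 higher and 0 lower. *Ercc1* was at 21.9, 10.8 and 3.55 FPKM and *mus201* at 6.93, 4.44 and 2.00 FPKM, both of nucleotide excision repair, and the other 3, named after their values were seen, were *lok*, *mre11* and *spel1*. No difference between these lists was tested.

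**Figure D3:**
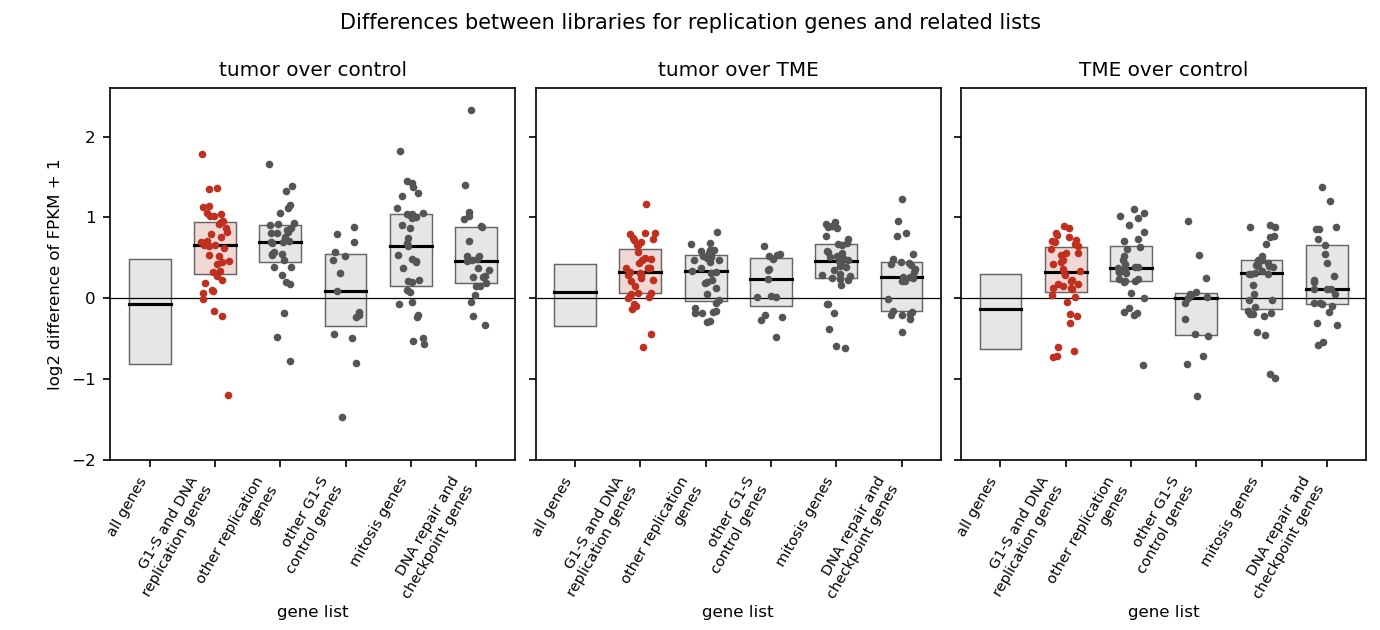
Differences of log2 (FPKM + 1) between libraries for all 9523 genes with a mean FPKM of at least 1 and for 5 gene lists, where each point is a gene, the box spans the quartiles and the line is the median. The medians of the 39 genes are 0.66, 0.32 and 0.33 in the 3 panels, and those of all genes are -0.07, 0.08 and -0.13.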

How the data were processed

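RNA was measured in 3 libraries, 1 per condition. Per the labels, cells of dissected discs were sorted by FACS and RNA was extracted with Trizol, while the methods name Qiagen RNAmini kits and do not mention sorting. Libraries were made with a TruSeq kit and read on a MiSeq. The authors mapped the reads with the Tuxedo tools, to the genome release that their methods name, and the table they deposited holds 1 FPKM value per gene and library. The Tuxedo version is not given in the sources used here, nor are the gene annotation and the strandedness.

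Genes and lists were chosen with earlier results of these data known. Ratios were taken from FPKM as deposited, and medians from log2 (FPKM + 1) differences over genes with a mean FPKM of at least 1, a scale that understates differences of low genes. With 1 library per condition no test was run. A gene counted as higher or lower when the larger FPKM exceeded 5 and was 2 or more times the smaller, or the smaller was 0. A value of 0 can be a failed estimate, and no member was at 0.

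Depth was fitted to the FPKM steps of genes with 1 transcript, so that values of up to 5 fragments became whole. Within 0.1 of a whole number lay 82.4% of the low values in tumor cells, 79.0% in TME cells and 81.4% in control cells, where 20% would by chance. Lengths and exon overlaps came from the Ensembl annotation of BDGP6, another release than that of the authors, and no coordinates were used. Of the genes, 14927 matched by identifier and 221 by symbol (97.1%), and of the members 36 and 3. Intervals are exact Clopper-Pearson intervals at 95%, from fragments on the shortest annotated transcript. The members had 11 to 541 fragments in tumor cells (median 131), 66 to 2081 in TME cells (665) and 7 to 492 in control cells (72). Exons of 20 members overlap another annotated gene.

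All members were named. Of the other replication and G1-S lists, up to 6 genes that passed were named by the size of the tumor over control difference, and of the mitosis and repair lists up to 2. A planned count of promoter motifs was not run, as no sequence was used here. The alternatives covered the ratio, the floor, the pseudocount, the filter, 3 scalings and the longest transcript, and the steps were tested on simulated data. Software was pandas 2.3.3, scipy 1.17.1 and numpy 2.4.6 in Python 3.11.15, with figures from matplotlib 3.10.9.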

Additional observations from a re-analysis of the deposited data

How the results depend on the processing

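Of 111 alternatives for the counts and medians, 91 stayed within 1.5 times the count or within 0.1 of the median (log2), and 20 moved by more. A count has no direction, so only the medians could reverse, and 0 of them did. All 39 genes were above 5 FPKM in both tumor and TME cells, so a lower floor or no floor could not change the counts by the rule. The 91 are thus not all informative checks. No paired analysis was possible because each group has 1 library, and for the same reason none could be left out. At a ratio of 1.5, 22 genes were higher in tumor than control cells, 11 higher and 1 lower than in TME cells, and 12 were higher and 4 lower in TME than control cells. At a ratio of 3, 1 gene was higher and 0 lower in tumor than control cells, and 0 were higher than in TME cells. Shares of all genes were not counted at these ratios or with the other scalings. The shares given above therefore do not apply to these counts. A pseudocount of 5 gave a median log2 difference of 0.56 between tumor and control.

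Scaling by the upper quartile divided the ratios by 1.10 for tumor over control, by 1.22 for tumor over TME and by 0.902 for the TME against the control, so that log2 ratios dropped by 0.14 and by 0.29 in the first pair of comparisons and were 0.15 higher in the last. The medians of the 39 genes became 0.53, 0.059 and 0.47. Between tumor and control, the median ratio and the total without the 100 most abundant genes left 8 genes higher (without *DNApol-alpha73* and *Mcm7*). The upper quartile left 6 genes higher in tumor than control cells (without *DNApol-alpha73*, *Mcm7*, *DNApol-alpha180* and *RfC38*), 0 higher than in TME cells and 2 higher in TME than control cells (*DNApol-alpha50* and *RPA2*). The counts of intervals under the scalings were chosen after seeing the data, and for tumor over TME 12 lay above 1 and 6 below with the upper quartile, against 16 and 17 above 1 with the other scalings. Scaling by the median ratio gave a tumor over TME median of 0.20, and both it and the total without the 100 most abundant genes put 1 gene, *DNApol-alpha50*, higher in TME than control cells. Besides *CycE*, the direction of tumor over control turned for *E2f* (median ratio and upper quartile) and *Orc1* (upper quartile), and that of TME over control for *Rbf* (upper quartile). Of 468 alternatives for the ratios of single genes, 446 stayed inside the counting interval. Depth limits the genes with few fragments, such as *Psf2* with about 7 and *DNApol-alpha60* with about 13 in the control, and *Orc6* with about 11 in the tumor.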
